A study of Caenorhabditis elegans with 4 samples.

Results

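The ugt genes of Caenorhabditis elegans encode the UDP-glucuronosyltransferases of this nematode. They were picked by name: every probe with a single gene symbol which, after an update through its Entrez gene number, reads ugt- followed by a number. This took 72 of 21632 probes and 62 of 14958 named genes, of 67 ugt genes in the RefSeq annotation of assembly WBcel235. All 62 had a value on at least 3 arrays and were tested, so no member was lost to a filter. The study hybridised RNA of wild-type (wt) L3 larvae, the third larval stage, against a wild-type mixed reference on 2-colour arrays. There were 4 L3 preparations, numbered 1 to 4, with 1 array each. The L3 RNA was always in channel 2 and the reference always in channel 1. With no array the other way round, a difference between channels for a gene cannot be told apart from one between L3 and reference. The labels give no strain name, culture condition or treatment, and they state neither what was mixed into the reference nor if each preparation was a culture of its own.

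UDP-glucuronosyltransferases are membrane enzymes of the endoplasmic reticulum. They move a sugar from a UDP-linked donor onto small fat-soluble molecules such as drugs, plant and bacterial toxins, and steroid or lipid products of the body itself. The conjugate dissolves better in water, and export pumps can carry it out of the cell. Vertebrate enzymes of the family mostly use UDP-glucuronic acid as donor, whereas C. elegans is known for making glucosides, with glucose as the sugar. The intestine is a main site of such detoxification in the worm. The substrates of most single worm enzymes are not settled, so the genes are described here by size of difference and by position.

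Each value is a log2 ratio of the 2 channels, centred on the median of its array. The direction, L3 over reference, is likely and not certain, since the descriptions put L3 ahead of the reference but no dye is named. A positive value is read as more transcript in L3, and 1 unit is a 2-fold difference. Were the ratio the other way round, every higher, lower and rank given here would turn, with its background. Values are means ± SD over the 4 preparations unless another n is given, and p-values are from limma, adjusted over all 19943 genes and probes tested, with a threshold of 0.05. They measure the spread between the preparations only, which may be technical, and leave out that of the reference. All 14 oocyte and embryo markers and all 4 adult stage markers on the lists used here (vit-2, vit-5, vit-6 and col-19) were lower in L3. In whole-animal RNA, fewer cells of a type and less RNA per cell cannot be told apart.

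The ugt family as a whole lay above 0, with a broad spread. Higher in L3 were 32 of the 62 genes, or 51.6%, against a background of 8.31% over all genes and probes; with the ratio turned, the same shares would be lower in L3. Only 1 gene, ugt-18, was lower, where the background is 10.8%, and 29 did not pass. Of the 32, 7 were higher by at least 8-fold, 5 by 4- to 8-fold, 14 by 2- to 4-fold and 6 by under 2-fold. The count of genes both past the threshold and at least 2-fold higher was 26, or 41.9%, beside a background of 4.61%. The median of the 62 mean log2 ratios was 0.91, with quartiles of 0.35 and 1.83, while the median over all genes and probes was 0.02, with quartiles of -0.33 and 0.36. Ratios above 0 on every array with a value were seen for 46 ugt genes (74.2%, background 22.3%), ratios below 0 on every array for 4 (background 23.6%), and both signs for 12. Before adjustment, p was under 0.05 for 43 genes with a mean above 0 and for 3 with a mean below 0. Both directions together, this was 46 of the 62 ugt genes, beside a background of 7004 of all 19943 genes and probes. In this direction the family supplied 3 of the 10, 8 of the 50 and 13 of the 200 named genes with the highest means, whatever their call. With the ratio turned these would be the lowest. The 10 include ugt-13, which had n = 3, and the 50 include ugt-67, which did not pass.

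**Figure D1:**
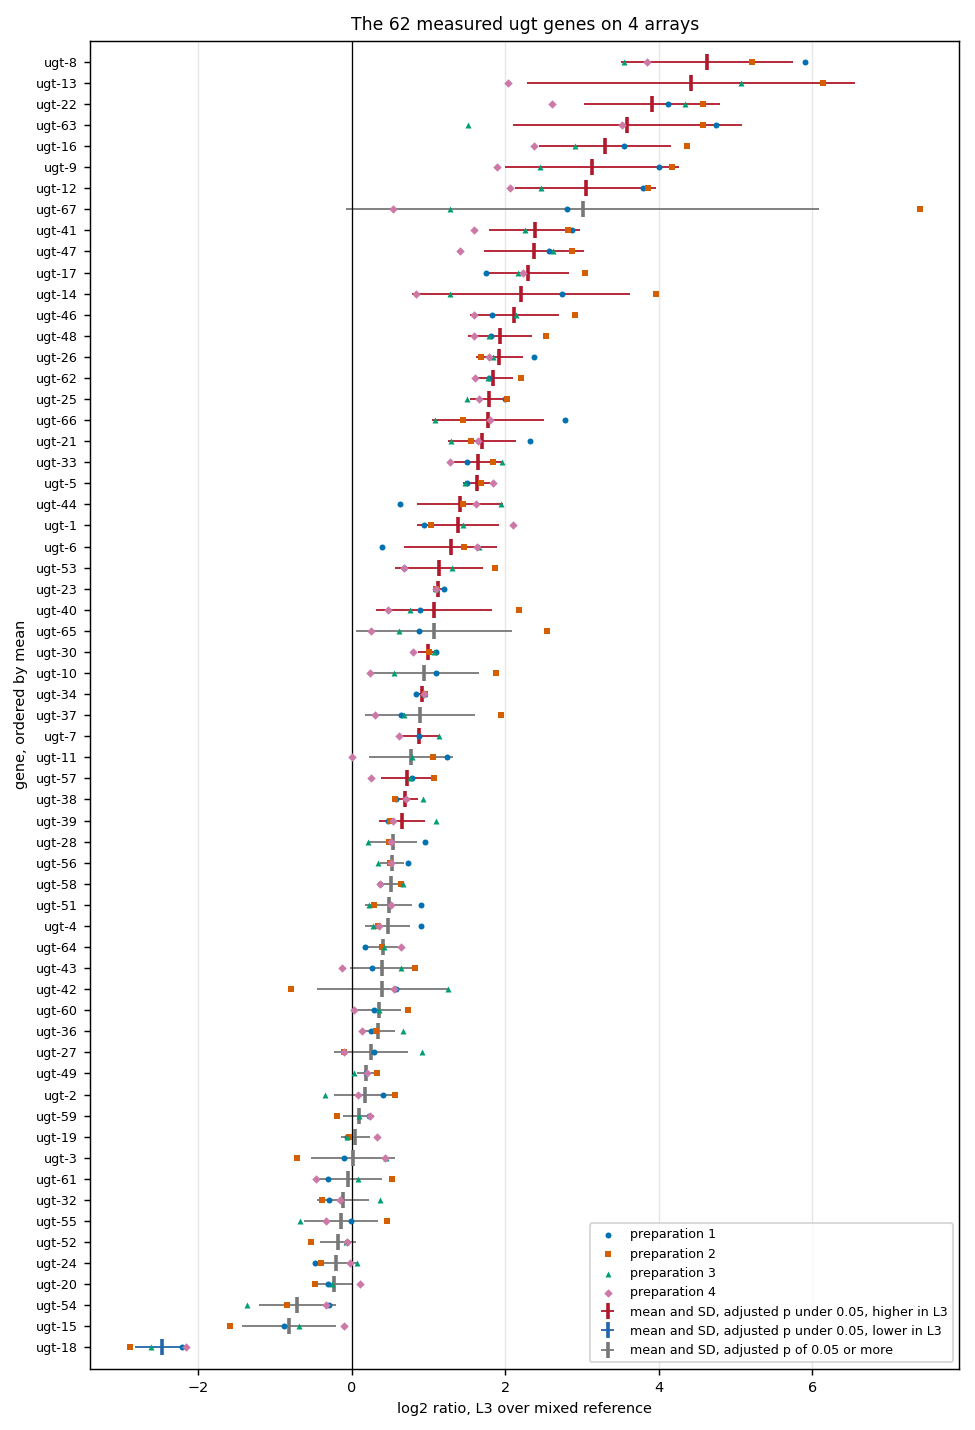
Log2 ratio (L3 over mixed reference, x axis) of each of the 62 ugt genes (y axis, ordered by mean) in preparations 1 to 4 (coloured symbols), with the mean as a tick, the SD as a line and the colour of the tick showing the call. The means run from 4.63 for ugt-8 to -2.47 for ugt-18, and 53 of the 62 lie above 0.

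The gene ugt-8 stood highest. Its log2 ratios were 5.90, 5.21, 3.55 and 3.85 in preparations 1 to 4, a mean of 4.63 ± 1.12 and a 24.8-fold higher level in L3 (adjusted p = 0.00143). Each preparation lay far above 0, and preparations 1 and 2 lay above 3 and 4. For ugt-22 the log2 ratios were 4.11, 4.58, 4.34 and 2.61 (mean 3.91 ± 0.89, adjusted p = 0.00131), so that 3 preparations were close together and preparation 4 was lower. In ugt-9 they were 4.01, 4.17, 2.45 and 1.90 (3.13 ± 1.13, 8.77-fold, adjusted p = 0.00475), and in ugt-12 they were 3.80, 3.86, 2.46 and 2.06 (3.05 ± 0.92, 8.27-fold, adjusted p = 0.00293). These last 2 genes showed nearly the same values array by array.

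Values of ugt-41 were 2.87, 2.82, 2.25 and 1.59 (2.38 ± 0.60, adjusted p = 0.00226), and those of ugt-47 were 2.57, 2.87, 2.62 and 1.41 (2.37 ± 0.65, adjusted p = 0.00271). For ugt-17 they were 1.76, 3.04, 2.17 and 2.23 (2.30 ± 0.54, adjusted p = 0.00208). All 3 of these were about 5-fold higher in L3, at 5.22-, 5.17- and 4.92-fold, and their ranges overlapped, so their order is not resolved. Below them, ugt-46, ugt-48, ugt-26, ugt-62, ugt-25, ugt-66, ugt-21, ugt-33 and ugt-5 had means between 2.12 and 1.63. The smallest spread among all 32 was that of ugt-23, at 1.12 ± 0.05.

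Not every large ratio was well measured. The log2 ratios of ugt-67 were 2.81, 7.40, 1.28 and 0.54, so that its mean of 3.01 ± 3.07 rested on preparation 2, and it did not pass (adjusted p = 0.0974). Without preparation 2 the mean of ugt-67 was 1.54. The gene ugt-13 had no value in preparation 1 and log2 ratios of 6.14, 5.07 and 2.03 in preparations 2 to 4 (4.42 ± 2.13, n = 3, adjusted p = 0.0170). Its mean was 3.55 without preparation 2 and 5.61 without preparation 4, and its call was lost without preparation 3 (adjusted p = 0.0790). In ugt-63 the values were 4.74, 4.58, 1.51 and 3.53 (3.59 ± 1.49, adjusted p = 0.00678). Preparation 3 was far below the others, and the mean without it was 4.28. These were the 3 largest SDs in the family. The median SD was 0.43 for ugt genes and 0.36 for all genes and probes.

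The gene ugt-18 was the one member lower in L3. Its log2 ratios were -2.21, -2.89, -2.61 and -2.16, a mean of -2.47 ± 0.35, which is 5.53-fold lower in L3 (adjusted p = 0.000847). This is the smallest adjusted p in the family, and the call held without each preparation in turn (adjusted p between 0.00239 and 0.00901). Next lowest were ugt-15, at -0.81 ± 0.61 (adjusted p = 0.0687), and ugt-54, at -0.70 ± 0.51 (adjusted p = 0.0718), both below 0 on all 4 arrays and neither past the threshold in this fit. The gene ugt-52 was below 0 on all 4 arrays too, at -0.18 ± 0.23 (adjusted p = 0.446). The remaining 5 genes with a mean below 0 (ugt-20, ugt-24, ugt-55, ugt-32 and ugt-61) lay between -0.23 and -0.04 and had values of both signs.

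Calls near the threshold were fragile. Just inside it lay ugt-40 (0.89, 2.18, 0.76 and 0.48 in preparations 1 to 4, adjusted p = 0.0484), ugt-39 (0.47, 0.49, 1.10 and 0.55, adjusted p = 0.0431) and ugt-57 (0.79, 1.07, 0.76 and 0.26, adjusted p = 0.0371). Just outside were ugt-56 (0.74, 0.50, 0.35 and 0.52, adjusted p = 0.0530), ugt-58 (0.37, 0.65, 0.67 and 0.38, adjusted p = 0.0567) and ugt-10 (1.10, 1.88, 0.56 and 0.24, adjusted p = 0.0627). All 6 were above 0 in every preparation, and the ranges on the 2 sides overlapped. The gene ugt-7 had no value in preparation 2 and log2 ratios of 0.88, 1.13 and 0.61 in preparations 1, 3 and 4 (0.88 ± 0.26, n = 3, adjusted p = 0.0340).

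Leaving out 1 preparation at a time, which also leaves fewer arrays, 23 of the 32 higher genes kept their call in each of the 4 fits and 9 lost it in at least 1. Besides ugt-13, ugt-14 no longer passed when preparation 1 (adjusted p = 0.120) or 3 (0.0547) was left out, nor did ugt-53 (0.0517 and 0.0830). In ugt-6 the adjusted p was 0.0503, 0.0692 and 0.0625 when preparation 2, 3 or 4 was left out. For ugt-7 and ugt-38 the call went without preparation 1, 3 or 4 (adjusted p = 0.138, 0.141 and 0.0715 for ugt-7, and 0.0757, 0.0959 and 0.0744 for ugt-38), and for ugt-57 without 1, 2 or 3 (0.131, 0.0946 and 0.118). Neither ugt-40 (adjusted p from 0.0511 to 0.131, with a mean of 0.71 without preparation 2) nor ugt-39 (0.0728 to 0.139) passed in any of the 4. One gene was gained: ugt-11 passed without preparation 4 (adjusted p = 0.0303), where its log2 ratio was 0.01 against 1.24, 1.06 and 0.78 in preparations 1 to 3.

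For 10 ugt genes 2 probes were averaged, and these show how far 2 spots for the same gene can differ. A gap over 1 log2 unit on at least 1 array occurred in 7 of the 10. It was widest in ugt-16, whose first probe had log2 ratios of 6.15, 5.10, 2.55 and 1.59 in preparations 1 to 4 and whose second had 0.94, 3.64, 3.26 and 3.15. The first probe was highest in preparation 1, where the second was lowest, and both were past the threshold (means 3.85 and 2.75, adjusted p = 0.0167 and 0.00905 at probe level). The average of the probes was 3.54, 4.37, 2.91 and 2.37 (3.30 ± 0.86, 9.83-fold, adjusted p = 0.00201). In ugt-64 one probe lay at 1.03, 2.07, 0.22 and 0.58 and the other at -0.69, -1.28, 0.62 and 0.71, so that the sign differed in preparations 1 and 2. Neither probe of ugt-64 passed.

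For ugt-1 the first probe was stable, at 1.86, 1.94, 1.44 and 1.91 (adjusted p = 0.00150), while the second had 0.02, 0.14, 1.45 and 2.31 (adjusted p = 0.137). The probes of ugt-57 lay at 1.36, 1.19, 1.47 and 0.76 (adjusted p = 0.00677) and at 0.22, 0.95, 0.05 and -0.24 (adjusted p = 0.462). In ugt-1, ugt-57 and ugt-39 (adjusted p = 0.0768 and 0.0277), 1 of the 2 probes passed on its own, and all 6 probe means were above 0. In ugt-25 the first probe had 1.18, 1.93, 1.53 and 1.77 and the second 2.80, 2.12, 1.47 and 1.55, both past the threshold. The probes of ugt-49 lay at 0.12, -0.21, -0.10 and 0.16 and at 0.25, 0.86, 0.18 and 0.24, and those of ugt-10 at 1.28, 2.44, 0.68 and 0.13 and at 0.91, 1.32, 0.44 and 0.35. In both genes they parted by over 1 unit only in preparation 2, and none of these 4 probes passed. The pairs of ugt-5, ugt-38 and ugt-39 stayed within 1 unit on every array. In all, both probes passed for 4 genes, 1 for 3 genes and none for 3 genes, beside a background of 8.18% of probes higher in L3.

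**Figure D2:**
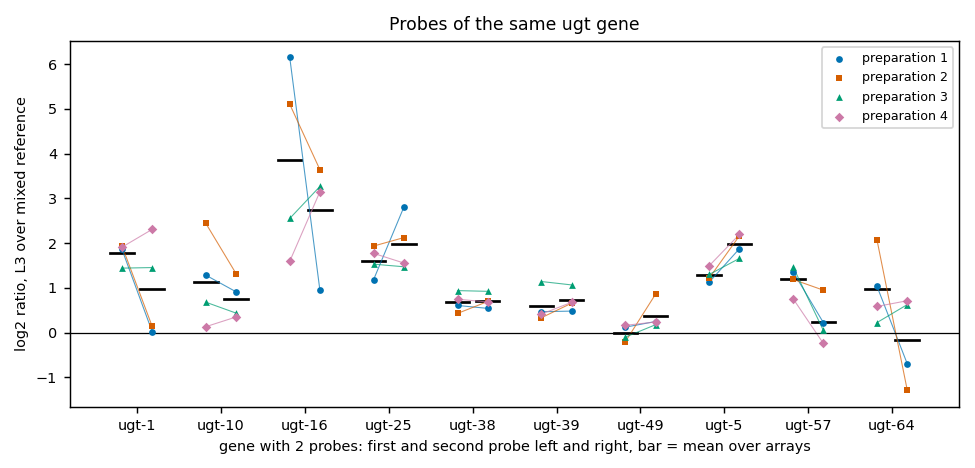
Log2 ratio (L3 over mixed reference, y axis) of both probes of the 10 ugt genes with 2 probes (x axis); symbols of the same colour joined by a line are 1 preparation, and black bars are probe means. The lines of ugt-16 and ugt-64 cross widely, by up to 5.21 and 3.35 units, while those of ugt-38 stay within 0.27.

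Many ugt genes lie next to each other on a chromosome. When ugt genes with at most 2 other protein-coding genes between them were joined into runs, 35 of the 62 fell into 11 runs and 27 stood alone. Higher in L3 were 18 of the 35 and 14 of the 27. The longest run, of 8 genes on chromosome V, held ugt-12, ugt-11, ugt-9, ugt-10, ugt-67, ugt-8, ugt-14 and ugt-13 in this order. Of these 5 were higher and 3 did not pass, and their median of 3.03 was the highest of the 11 runs. It held 5 of the 8 ugt genes with a mean of at least 3. Within it ugt-11 (0.77 ± 0.54) lay between ugt-12 and ugt-9, each past 3, so high and lower ratios alternated. In this run ugt-14 had log2 ratios of 2.73, 3.96, 1.28 and 0.84 (2.20 ± 1.42, adjusted p = 0.0289). Of the 8 genes of the run, 7 were lowest in preparation 4, as were 24 of the 60 ugt genes measured on all arrays. By another measure, 11 of the 12 ugt genes measured on all arrays with a mean of at least 2 were lower in preparation 4 than in both 1 and 2. These 12 include genes of the run. Those outside it that were lower were ugt-22, ugt-63, ugt-16, ugt-41, ugt-47 and ugt-46, while ugt-17 was not. Low values in preparation 4 were thus not particular to the run. The probe sequences and the identity between the genes of this run were not analysed here, so cross-hybridisation between neighbouring copies was not tested.

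The run of ugt-18, ugt-16 and ugt-15 on chromosome V, with no other coding gene between them, held the one lower member beside one of the highest. The difference of ugt-18 minus ugt-16 was -5.76, -7.26, -5.52 and -4.53 in preparations 1 to 4, a mean of -5.77 ± 1.13, and that of ugt-15 minus ugt-16 was -4.42, -5.96, -3.59 and -2.47. No value of ugt-18 or ugt-15 reached the lowest of ugt-16. This pair of differences was chosen after the values were seen and is given with no test. On chromosome I, ugt-26 (1.93 ± 0.31) and ugt-25 (1.80 ± 0.26) at the ends of a run of 4 were higher, while ugt-27 (0.25 ± 0.48) and ugt-28 (0.54 ± 0.31) between them did not pass. In the run of ugt-5, ugt-4, ugt-6 and ugt-3 on chromosome V, ugt-5 (1.63 ± 0.17) and ugt-6 (1.29 ± 0.61) were higher, and ugt-4 (0.47 ± 0.29) and ugt-3 (0.02 ± 0.55) did not pass.

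**Figure D3:**
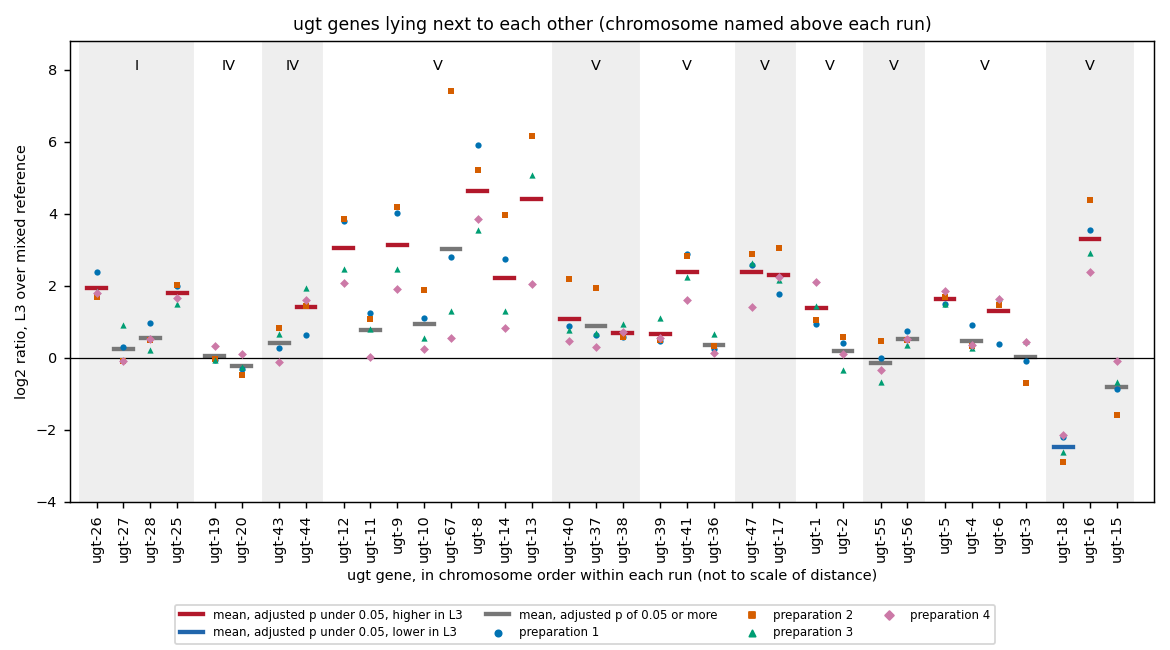
Log2 ratio (L3 over mixed reference, y axis) of the 35 ugt genes in the 11 runs, in chromosome order within a run (x axis; shading separates runs and distances are not drawn), with preparations as coloured symbols and means as bars coloured by call. The run of 8 on chromosome V has the highest median, 3.03, and in the run at the far right ugt-18 at -2.47 stands beside ugt-16 at 3.30.

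Direct neighbours did not always share their call. Among 20 pairs of ugt genes with no coding gene between them, both were higher in 2, 1 was higher in 14 and neither in 4. With 32 of the 62 ugt genes higher, pairs taken from anywhere in the family would often differ too, and their share was not counted. The median absolute difference between the mean log2 ratios was 1.26 within the 20 pairs of neighbours and 1.15 over all 1891 pairs of ugt genes. Genes share neighbours and pairs share genes, so this is a description with no test. The nearest coding genes on either side that are not ugt numbered 80, of which 65 were tested. Of these 5 were higher and 5 lower, and 7.69% higher lies near the background of 9.62% for named genes. The background of lower named genes is 11.9%. The median log2 ratio of the 65 was 0.28, above the 0.02 of all genes and probes.

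By chromosome, V carried most of the family. Of its 40 measured ugt genes 22 were higher (against 9.75% of all named genes of chromosome V) and 1 was lower, with a median of 0.93. On chromosome IV 3 of 11 were higher (27.3%, against 9.83% of its named genes), namely ugt-22, ugt-21 and ugt-44, and the median was 0.09. The other chromosomes held few members: 2 of 4 were higher on I, 0 of 1 on II, 2 of 3 on III and 3 of 3 on X. Their backgrounds were 7.57%, 9.36%, 7.91% and 12.9%. Differences between chromosomes were not tested.

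The family was above 0 in each preparation, by a different amount. Medians over the ugt genes were 0.88, 1.06, 0.94 and 0.55 in preparations 1 to 4, and 50 of 61, 49 of 61, 54 of 62 and 52 of 62 genes lay above 0. Of the 60 genes measured on all arrays, 25 had their highest ratio in preparation 2 and 24 their lowest in preparation 4. The arrays differed in the same way over all probes: the median absolute deviation of the deposited values was 0.38, 0.58, 0.39 and 0.28. After the arrays were scaled to a common spread, the 4 medians were 0.91, 0.72, 0.95 and 0.77, and preparation 2 then held the highest ratio of 9 genes and the lowest of 27, and preparation 4 the highest of 21 and the lowest of 14. With the scaling, preparation 2 thus went from the highest median to the lowest, while the medians of preparations 3, 1 and 4 kept their order. Before scaling, 11 of the 12 genes measured on all arrays with a mean of at least 2 had a lower ratio in preparation 4 than in both 1 and 2. The array titles carry a month, one for preparations 1 and 2 and another for 3 and 4. In preparations 1 and 2 alone the median was 0.96 with 19 genes higher, and in 3 and 4 alone it was 0.82 with 23 higher, each from 2 arrays. Over all genes and probes, 691 and 716 were higher in these fits, against 1657 in the fit on preparations 1 to 4. The gene ugt-18 was lower in both pairs of preparations.

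**Figure D4:**
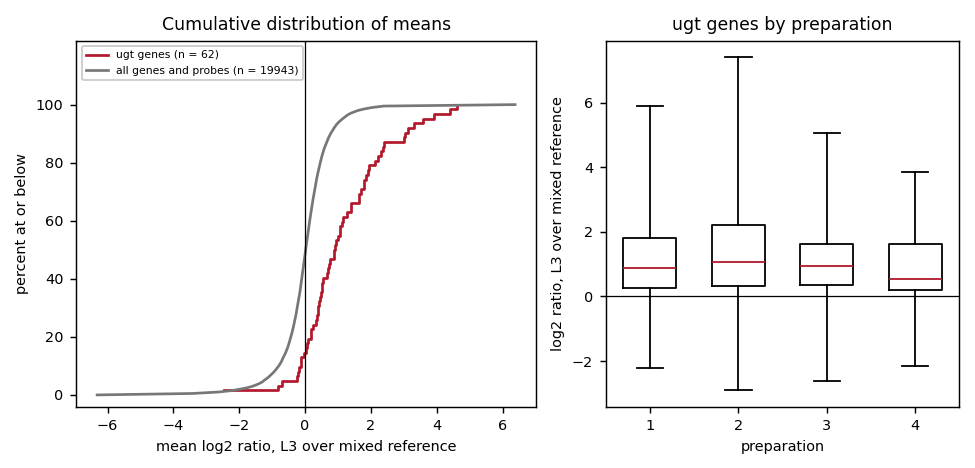
Left, cumulative percent (y axis) of mean log2 ratios (x axis) for the 62 ugt genes and for all 19943 genes and probes tested, which include them. Right, log2 ratios (y axis) of the ugt genes in preparations 1 to 4 (x axis), with the box from quartile to quartile, the red line at the median and whiskers at the lowest and highest value. The ugt curve lies to the right of the curve of all genes, with medians of 0.91 and 0.02, and the box of preparation 4 has the lowest median, 0.55.

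Genes that make UDP-sugars or use them in other ways lay slightly below 0 at the median. Of 21 listed 15 were measured: 1 was higher, 5 were lower and 9 did not pass (median -0.19), where the background is 8.31% higher and 10.8% lower. The higher one was uggt-1, at 1.39 ± 0.41 (adjusted p = 0.00584), whose enzyme glucosylates misfolded glycoproteins in the endoplasmic reticulum. Among the lower ones were sqv-1, which makes UDP-xylose from UDP-glucuronic acid, at -1.03 ± 0.23 (adjusted p = 0.00779), and sqv-8, a glucuronosyltransferase of proteoglycan assembly, at -0.92 ± 0.27 (adjusted p = 0.0134, and 0.0584 without preparation 3). The lower count was 2, 4, 1 and 3 without preparations 1 to 4. The gene sqv-4, named here after its values were seen, encodes the dehydrogenase that makes UDP-glucuronic acid. Its log2 ratios of -0.47, -2.12, 0.55 and -0.01 had no common sign (adjusted p = 0.413).

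Of 14 listed regulators of the response to foreign compounds, 12 were measured, 1 was higher, 3 were lower and 8 did not pass (median -0.46), beside the same background of 8.31% higher and 10.8% lower. The nuclear receptor gene nhr-8, which has a role in resistance to toxins, had log2 ratios of 1.15, 1.61, 1.28 and 1.17 (SD 0.21, adjusted p = 0.00348), above 0 on all arrays. The lower genes were hsf-1, ahr-1 and nhr-49, the first and last at -0.71 ± 0.10 (n = 3) and -0.69 ± 0.30 (adjusted p = 0.0461 and 0.0363). Without preparations 1 to 4 in turn 0, 1, 0 and 1 of these regulators were lower. The adjusted p of hsf-1 was then 0.166, 0.0423, 0.168 and 0.115, and that of nhr-49 was 0.137, 0.0933, 0.100 and 0.0491. The gene of the stress regulator skn-1 lay at 0.01 ± 0.31.

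Of 20 P-glycoprotein (pgp) and multidrug resistance (mrp) genes, whose proteins export toxins and conjugates, 7 were higher, 1 was lower and 12 did not pass (median 0.64), with 8.31% higher and 10.8% lower as background. The largest among those past the threshold were pgp-1 (2.29, 5.15, 3.64 and 2.39, adjusted p = 0.00606), pgp-9 (1.23, 2.58, 1.13 and 0.82, adjusted p = 0.0214) and pgp-3 (1.48, 1.01, 1.42 and 1.56, adjusted p = 0.00332), all above 0 on every array. In pgp-9 the adjusted p was 0.0757 when preparation 1 was left out and 0.0595 when 3 was, and 4, 6, 2 and 3 of the 20 were higher without preparations 1 to 4. The lower one was pgp-7, and it passed only without preparation 4 among these fits.

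Among 13 measured intestine markers of 14 listed, 7 were higher and 6 did not pass, against a background of 8.31% higher. Their median was 1.26, and by preparation it was 1.18, 2.09, 1.35 and 0.83. The peptide transporter gene pept-1 (2.74 ± 0.39, adjusted p = 0.000726), the actin gene of microvilli act-5 (2.38 ± 0.41, adjusted p = 0.00124) and the sodium-proton exchanger gene nhx-2 (1.88 ± 0.37, adjusted p = 0.00205) led them. The intestinal transcription factor genes elt-2 (0.33 ± 0.24) and elt-7 (-0.14 ± 0.15) did not pass, and 3 of the 6 that did not pass (cpr-1, elt-7 and asp-1) had means below 0. The oocyte and embryo markers, 14 of 14 lower against a background of 10.8%, had a median of -4.11. The part of either list in the ugt ratios was not tested.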

How the data were processed

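Log2 ratios of the 2 channels were deposited by the authors as 1 value per probe and array. How the authors corrected background, normalized and filtered spots is not stated in the labels, and no intensities or counts were used to set signal against background, so the number of arrays limits the precision. Between 99.96% and 100.0% of values on an array were log2 of a whole multiple of 0.001 (within 0.02 of a step), and 5.1% to 5.4% of the inverse ratios were, so the deposited values are log2 of a rounded ratio. Deposited medians were 0.02, 0.00, -0.03 and -0.01. Of scale, centring and direction, the method of centring stays unknown, and the direction, not stated, is likely L3 over reference because the descriptions name L3 first. Pearson correlations between arrays, across probes, which are not independent replicates, were 0.620 to 0.723 for 6 pairs.

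Probe names came from a platform annotation (16450 probes with 1 symbol, 247 with several, 4935 unnamed), and 16360 were updated to RefSeq WBcel235, which served for names, chromosomes and gene order only. Arrays were centred on their median, the probes of a gene averaged, and genes with a value on at least 3 arrays tested two-sided with lmFit and eBayes of limma 3.58.1 (R 4.3.3) on an intercept, with Benjamini-Hochberg adjustment. The code of the fit was also run on simulated ratios with independent normal errors. These copied neither the differing spread of the arrays nor any channel effect, so the run checks the code only. Genes with array values in the text are the 10 highest and all lower members past the threshold, the 3 largest SDs, those short of an array or with probes over 1 unit apart, the 3 nearest the threshold on each side, and up to 3 passing genes of each other list, with exceptions said in the text. Members and lists were chosen with earlier results of these data known. The planned comparison of protein and promoter sequences was not run, so the rule's clause on close paralogs was not applied. Alternatives were the values as deposited, array scaling, quantile normalization, other minimum numbers of arrays, the median of probes, probe level, a variance trend, the title month as a block, and leaving out preparations. The variance trend was fitted on the absolute mean log2 ratio of each gene, in place of intensity, with the robust option of eBayes.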

Additional observations from a re-analysis of the deposited data

Results flagged for a closer look

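In 7 of the 60 ugt genes measured on all 4 arrays, 1 preparation stood apart from the other 3 by more, as a share of the gene's whole range, than the 95% limit of Dixon's test for 4 values, and chance alone gives about 1 in 20. Preparation 1 was the one apart in 4 of them: ugt-6 (0.39, below the rest), ugt-4 (0.90, above), ugt-23 (1.20, above) and ugt-34 (0.84, below). The others were ugt-39 in preparation 3 (1.10, above), ugt-19 in preparation 4 (0.33, above) and ugt-52 in preparation 2 (-0.53, below). In ugt-23 and ugt-34 the whole range was only 0.11 and 0.12 log2 units.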

How the results depend on the processing

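No call of a ugt gene changed sign under any alternative run, and 18 of the 32 higher genes passed under all of them, among them ugt-8, ugt-22, ugt-16, ugt-9 and ugt-12. The median of the ugt genes stayed between 0.72 and 1.05. The higher ugt genes numbered 28 to 38 in the fits on all 4 preparations, 23 to 28 without 1 preparation, 19 in preparations 1 and 2 alone and 23 in 3 and 4 alone. Over all genes and probes, the matching higher counts were 1210 to 1998, 788 to 1085, 691 and 716, so calls rose and fell there too. The lower ugt genes numbered 2, with ugt-15 added, when arrays were scaled (adjusted p = 0.0432) or quantile normalized (0.0415). Both also raised ugt-10, ugt-37, ugt-56, ugt-58 and ugt-65 past the threshold, and scaling ugt-67 (0.0398). The title month as a block had a negative correlation (-0.117), which lowers standard errors, and added ugt-56 and ugt-58. The cause of these changes was not tested, other than that the fits on fewer arrays hold less data.

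Over all genes and probes, 691 were higher and 804 lower in preparations 1 and 2 alone, 716 and 978 in 3 and 4 alone, and 788 to 1085 and 1004 to 1635 without 1 preparation. Of UDP-sugar genes 2 were higher with quantile normalization or a value on all 4 arrays, 3 with the month as a block and 0 in preparations 1 and 2 alone; 3 were lower with a variance trend, 0 in preparations 1 and 2 alone, 1 in 3 and 4 alone and 1 to 4 without 1 preparation. Of regulators 0 were lower with a variance trend and in either pair of preparations alone, and 0 to 1 without 1 preparation. Of exporters 1 was higher in preparations 1 and 2 alone, 4 in 3 and 4 alone and 2 to 6 without 1 preparation; 2 were lower with scaled arrays or quantile normalization, 0 with a variance trend, 0 in either pair alone and 0 to 1 without 1 preparation.

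Among ugt genes that did not pass, the sign of the mean changed for ugt-42 (-0.10), ugt-19 (-0.043), ugt-3 (-0.40), ugt-61 (0.10) and ugt-55 (0.23) in preparations 1 and 2 alone, for ugt-2 (-0.13), ugt-32 (0.11) and ugt-24 (0.026) in 3 and 4 alone, and for 1 probe each of ugt-64 (-0.16) and ugt-49 (-0.0061). Without 1 preparation ugt-19 ran from -0.048 to 0.081, ugt-3 from -0.12 to 0.26, ugt-61 from -0.23 to 0.10 and ugt-55 from -0.33 to 0.043. No reversed value passed the threshold. The labels hold 1 group, so no paired analysis was possible because there is no second group to pair with.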
